A study of Homo sapiens with 8 samples.

Results

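The BCL2 family decides whether the mitochondrial outer membrane stays closed, and its transcripts were examined here in PANC-1 cells exposed to eupalinolide B (EB). The 10 members are the genes of a TPM table of 20263 genes whose human Ensembl identifiers map to the symbols BCL2, BCL2L1, MCL1, BAX, BAK1, BID, BAD, BBC3, PMAIP1 and BCL2L11. TPM is the length-corrected share of a library's transcripts that a gene takes. PANC-1 is an established line from a human pancreatic duct carcinoma, and EB is a compound isolated from the plant Eupatorium lindleyanum. The cells received either 10 μM EB or its solvent DMSO for 24 h, with 4 libraries per group, and no other agent or allele separated the groups. Table columns under the letter C were taken as DMSO and those under H as EB, as no further condition was part of the experiment. All libraries come from this single line, so the values describe 1 cancer model. The study asked by which routes EB kills pancreatic cancer cells, and the family was compared between EB and DMSO with its pro-survival members set against its pro-death members.

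In intrinsic apoptosis, the effectors BAX and BAK1 form pores in the outer mitochondrial membrane, through which cytochrome c leaves and starts the caspase cascade. The pro-survival proteins BCL2, BCL-XL (from BCL2L1) and MCL1 hold the effectors and their activators in check. The BH3-only proteins BID, BAD, PUMA (from BBC3), NOXA (from PMAIP1) and BIM (from BCL2L11) sense stress and neutralise the pro-survival proteins, and some of them also activate the effectors directly. Much of this control acts on the proteins, through cleavage, phosphorylation and degradation, which RNA sequencing does not measure.

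The part that all 10 proteins share is the BH3 domain, a short helix that has a part in the binding between members. In the coding sequences of the canonical GENCODE release 44 transcripts on hg38, the core of this domain was searched as 6 codons, namely a leucine codon, any 3 codons, a codon for glycine, alanine or serine, and an aspartate codon. It was found in all 10 members. The pattern is loose, since 34.6% of 20046 canonical coding sequences hold it, so a match alone does not mark a BH3 domain. The fifth codon of the core read glycine in 8 members, serine in BAD and alanine in BBC3. Printed below, 5′ to 3′ on the coding strand, are the 42 bases around the core for MCL1, BAK1 and PMAIP1, which enter the ratios without overlap described further on, for BBC3, whose fitted difference was the largest in size, and for BAD, the other member without glycine. The capitals mark the 6 core codons.
MCL1: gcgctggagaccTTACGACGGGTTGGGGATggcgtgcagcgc
BAK1: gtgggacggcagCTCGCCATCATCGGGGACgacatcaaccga
PMAIP1: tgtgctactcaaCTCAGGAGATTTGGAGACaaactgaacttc
BBC3: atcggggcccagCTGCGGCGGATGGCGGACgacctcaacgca
BAD: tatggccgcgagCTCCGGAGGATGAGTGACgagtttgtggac
These stretches lie, on hg38, in exon 1 of MCL1 (chr1:150578865-150578906, minus strand), exon 4 of BAK1 (chr6:33575387-33575428, minus strand), exon 2 of PMAIP1 (chr18:59902661-59902702, plus strand), exon 3 of BBC3 (chr19:47226579-47226620, minus strand) and exon 3 of BAD (chr11:64271622-64271663, minus strand). Each is coding sequence within 1 exon.

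At 24 h, no tested gene among the 10 listed members passed the test in either direction. Of the 10 members, 9 reached a TPM of 1 or more in 4 or more libraries, the filter for testing, and BCL2 did not. In limma on log2(TPM + 1) with Benjamini-Hochberg adjustment over all 11725 genes tested, 0 of the 9 had an adjusted p under 0.05, whereas 40.3% of all tested genes did (15.2% higher and 25.1% lower with EB). At an unadjusted p under 0.05, 2 of the 9 passed, PMAIP1 and BBC3, against 50.0% of all tested genes. The EB and DMSO values of 1 tested member, PMAIP1, did not overlap, against 36.8% of all tested genes. At the thresholds the study names, an unadjusted p under 0.05 and a log2 fold change beyond 1.5 in either direction, 0 members and 2.08% of all tested genes passed. The fitted difference was above 0 for 6 members and below 0 for 3, beside 5002 and 6723 of the 11725 genes tested. The median log2 fold change was 0.16 for the members against −0.11 over all genes tested. With mitochondrially encoded genes removed and the rest rescaled, these medians were −0.017 and −0.28, and with median-ratio scaling between libraries 0.295 and 0.0098. After removal of each library's trend on transcript length and GC content they were 0.011 and 0.016. These results do not show that the members stayed the same, and the 95% confidence interval beside each member gives the changes that remain possible.

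The libraries did not contribute evenly to these values. The 13 mitochondrially encoded genes took 39.0% of the TPM in DMSO replicate 4 and 17.01% to 21.1% in the other DMSO libraries, against 11.6% to 20.3% in the EB libraries. DMSO replicate 4 was the lowest of its group for 8 of the 10 members, and EB replicate 4 was the lowest of its group for 7 of 10. Because TPM have a fixed sum, each member is given below also with nuclear genes only (mitochondrial genes removed and the rest rescaled), with median-ratio scaling between libraries, or without DMSO replicate 4, where such a setting changes its call or sign. In bulk RNA, fewer cells carrying a transcript and less of it per cell cannot be told apart.

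**Figure D1:**
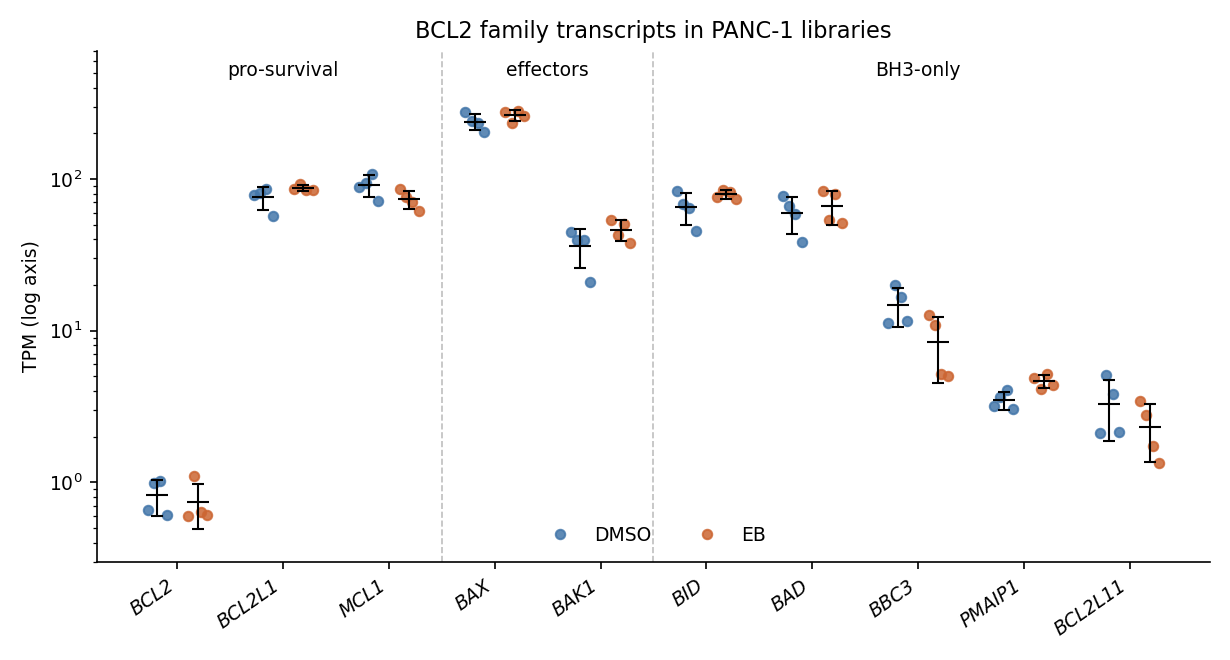
TPM (log axis) of the 10 members in the 4 DMSO and 4 EB libraries; points are libraries in the order of their replicate numbers, and the bars give the mean and SD. The levels run from 0.603 for BCL2 to 281 for BAX, and only the PMAIP1 groups are fully separated.

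Among the pro-survival members, BCL2L1 and MCL1 were abundant and BCL2 was nearly absent. BCL2 (ENSG00000171791, chr18:63123346-63320128, minus strand), the founding inhibitor of the family, had a TPM of 0.654, 0.991, 1.02 and 0.609 in DMSO replicates 1 to 4 and of 0.603, 1.10, 0.639 and 0.605 in EB replicates 1 to 4. The mean was 0.819 ± 0.217 (SD, n = 4) with DMSO and 0.737 ± 0.243 (SD, n = 4) with EB. The groups overlapped, and an exact two-sided permutation test of log2(TPM + 1) gave p = 0.771. The files give no read counts, so the depth behind so low a level is unknown.

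BCL2L1 (ENSG00000171552, chr20:31664452-31723989, minus strand) encodes BCL-XL, which binds BAX, BAK and several BH3-only proteins. Its TPM was 78.9, 80.7, 85.5 and 56.7 with DMSO and 85.8, 92.8, 84.8 and 84.3 with EB. The EB values were close together and the DMSO values were not, with replicate 4 far below the others, and the groups overlapped. The mean TPM went from 75.4 ± 12.8 to 86.9 ± 3.97 (SD, n = 4 each), a limma log2 fold change of 0.22 with a 95% confidence interval of −0.11 to 0.55 and an adjusted p of 0.259. Median-ratio scaling gave 0.35 with a limma adjusted p of 0.00672, and removal of each library's trend on transcript length and GC content gave 0.24 with 0.0263. With nuclear genes only, the log2 fold change was 0.034, and without DMSO replicate 4 it was 0.09.

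MCL1 (ENSG00000143384, chr1:150560895-150579738, minus strand) encodes a short-lived inhibitor that restrains BAK in particular and is the preferred partner of NOXA. Its TPM was 88.5, 94.2, 108 and 71.7 in the DMSO libraries and 85.5, 75.9, 70.2 and 61.4 in the EB libraries. No EB value exceeded the DMSO median, yet the groups overlapped through DMSO replicate 4. The mean TPM was 90.7 ± 15.1 with DMSO and 73.3 ± 10.1 with EB (SD, n = 4 each), a log2 fold change of −0.30 (95% confidence interval −0.65 to 0.06) at a limma adjusted p of 0.160. Without DMSO replicate 4, MCL1 was lower by limma with a log2 fold change of −0.40 and an adjusted p of 0.0336, and with nuclear genes only it was lower with −0.48 and an adjusted p of 0.00652. Quantile normalization gave −0.39 at a limma adjusted p of 0.0138. After removal of the length and GC trend the difference was −0.05 at a limma adjusted p of 0.699. The MCL1 values thus depended on how the libraries were scaled.

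Both effectors were expressed, BAX at several times the level of BAK1. BAX (ENSG00000087088, chr19:48954815-48961798, plus strand), which moves from the cytosol to mitochondria on activation, had the highest TPM of the family in every library. Its TPM was 275, 241, 233 and 204 with DMSO and 277, 235, 281 and 259.5 with EB. The ranges overlapped widely, from 204 to 275 and from 235 to 281. The mean of 238 ± 29.0 with DMSO and 263 ± 20.6 with EB (SD, n = 4 each) gave a log2 fold change of 0.15 (95% confidence interval −0.14 to 0.44) and a limma adjusted p of 0.389. Its sign depended on the processing, being −0.037 with nuclear genes only, −0.11 after quantile normalization and −0.20 after removal of the length and GC trend.

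BAK1 (ENSG00000030110, chr6:33572547-33580293, minus strand) encodes BAK, the effector that resides in the outer mitochondrial membrane. Its TPM was 44.9, 39.4, 39.8 and 20.9 with DMSO and 53.7, 42.7, 50.7 and 37.6 with EB. DMSO replicate 4 was well below the other libraries, and 3 of 4 EB values exceeded the DMSO median. The mean TPM was 36.3 ± 10.5 with DMSO and 46.2 ± 7.40 with EB (SD, n = 4 each), with a log2 fold change of 0.38 (95% confidence interval −0.14 to 0.90) and a limma adjusted p of 0.214. Median-ratio scaling gave a log2 fold change of 0.51 with a limma adjusted p of 0.0219. The BAK1 log2 fold change was 0.14 without DMSO replicate 4.

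The 5 BH3-only members fell into an abundant pair, BID and BAD, and 3 at low levels, BBC3, PMAIP1 and BCL2L11. BID (ENSG00000015475, chr22:17734138-17774770, minus strand) links death receptors to mitochondria once caspases cleave it. Its TPM was 83.2, 68.8, 64.1 and 45.1 with DMSO and 75.8, 84.8, 82.3 and 73.9 with EB. All 4 EB values exceeded the DMSO median, but DMSO replicate 1 lay among them. The BID mean was 65.3 ± 15.7 TPM with DMSO and 79.2 ± 5.19 TPM with EB (SD, n = 4 each), with a log2 fold change of 0.31 (95% confidence interval −0.09 to 0.70) and a limma adjusted p of 0.195. Median-ratio scaling gave 0.44 with a limma adjusted p of 0.00933, and leaving out DMSO replicate 4 gave a log2 fold change of 0.14.

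BAD (ENSG00000002330, chr11:64269830-64284704, minus strand) binds BCL-XL and BCL2 and is switched off by survival kinases such as AKT. Its TPM was 77.2, 65.8, 58.3 and 38.2 with DMSO and 83.4, 53.7, 79.2 and 50.9 with EB. The EB libraries split into replicates 1 and 3, which were high, and replicates 2 and 4, which were low, and both groups had about the same spread. The mean TPM was 59.9 ± 16.4 with DMSO and 66.8 ± 16.9 with EB (SD, n = 4 each), a log2 fold change of 0.16 (95% confidence interval −0.37 to 0.70) at a limma adjusted p of 0.609. It turned to −0.032 without DMSO replicate 4, to −0.017 with nuclear genes only and to −0.15 after removal of the length and GC trend.

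BBC3 (ENSG00000105327, chr19:47220822-47232766, minus strand) encodes PUMA, a p53 target that binds every pro-survival protein. Its TPM was 11.2, 19.9, 16.5 and 11.5 with DMSO and 12.6, 10.9, 5.16 and 5.02 with EB. EB replicates 3 and 4 were far below all DMSO values, and EB replicates 1 and 2 lay near the lowest DMSO values, so the groups overlapped. The mean TPM was 14.8 ± 4.19 with DMSO and 8.44 ± 3.93 with EB (SD, n = 4 each). The log2 fold change was −0.80 ± 0.30 (SE; 95% confidence interval −1.48 to −0.13), with an unadjusted limma p of 0.0237 and an adjusted p of 0.0563. An exact two-sided permutation test gave p = 0.114. BBC3 passed as lower with nuclear genes only (log2 fold change −0.99, limma adjusted p 0.0176), after removal of the length and GC trend (−0.93, adjusted p 0.0298), without DMSO replicate 4 (−0.90, adjusted p 0.0489), without EB replicate 1 (−1.01, adjusted p 0.0279) and without EB replicate 2 (−0.95, adjusted p 0.0460). Its log2 fold change stayed below 0 in all 17 alternatives, from −1.01 to −0.57. This was not particular to BBC3, as BCL2L1, MCL1, BAK1, BID and PMAIP1 also kept their sign in every alternative.

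PMAIP1 (ENSG00000141682, chr18:59899996-59904305, plus strand) encodes NOXA, a small BH3-only protein that binds MCL1 and promotes its degradation. Its TPM was 3.19, 3.64, 4.03 and 3.02 with DMSO and 4.88, 4.11, 5.19 and 4.41 with EB. Every EB value lay above every DMSO value, although EB replicate 2 and DMSO replicate 3 were nearly equal. The mean TPM was 3.47 ± 0.457 with DMSO and 4.65 ± 0.483 with EB (SD, n = 4 each). The log2 fold change on log2(TPM + 1), which understates changes at such low levels, was 0.34 ± 0.13 (SE; 95% confidence interval 0.06 to 0.62), with an unadjusted limma p of 0.0230 and an adjusted p of 0.0551. The exact two-sided permutation test gave p = 0.0286, the smallest value that 70 assignments allow. PMAIP1 passed as higher with a pseudocount of 0.1 (log2 fold change 0.41, limma adjusted p 0.0434), without a filter (0.34, adjusted p 0.0317), with median-ratio scaling (0.45, adjusted p 0.00982) and with quantile normalization (0.65, adjusted p 0.00256). With nuclear genes only it was 0.20 at a limma adjusted p of 0.149, and after removal of the length and GC trend 0.20 at 0.137.

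BCL2L11 (ENSG00000153094, chr2:111119378-111168444, plus strand) encodes BIM, which binds all pro-survival proteins and can activate BAX and BAK. Its TPM was 2.10, 5.06, 3.82 and 2.16 with DMSO and 3.41, 2.76, 1.75 and 1.34 with EB. The highest library of each group had more than 2 times the TPM of the lowest (2.41 times with DMSO and 2.56 times with EB), and the groups overlapped. The mean TPM was 3.29 ± 1.43 with DMSO and 2.31 ± 0.946 with EB (SD, n = 4 each), a log2 fold change of −0.36 (95% confidence interval −0.95 to 0.24) at a limma adjusted p of 0.307. After removal of the length and GC trend the log2 fold change of BCL2L11 was 0.011.

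**Figure D2:**
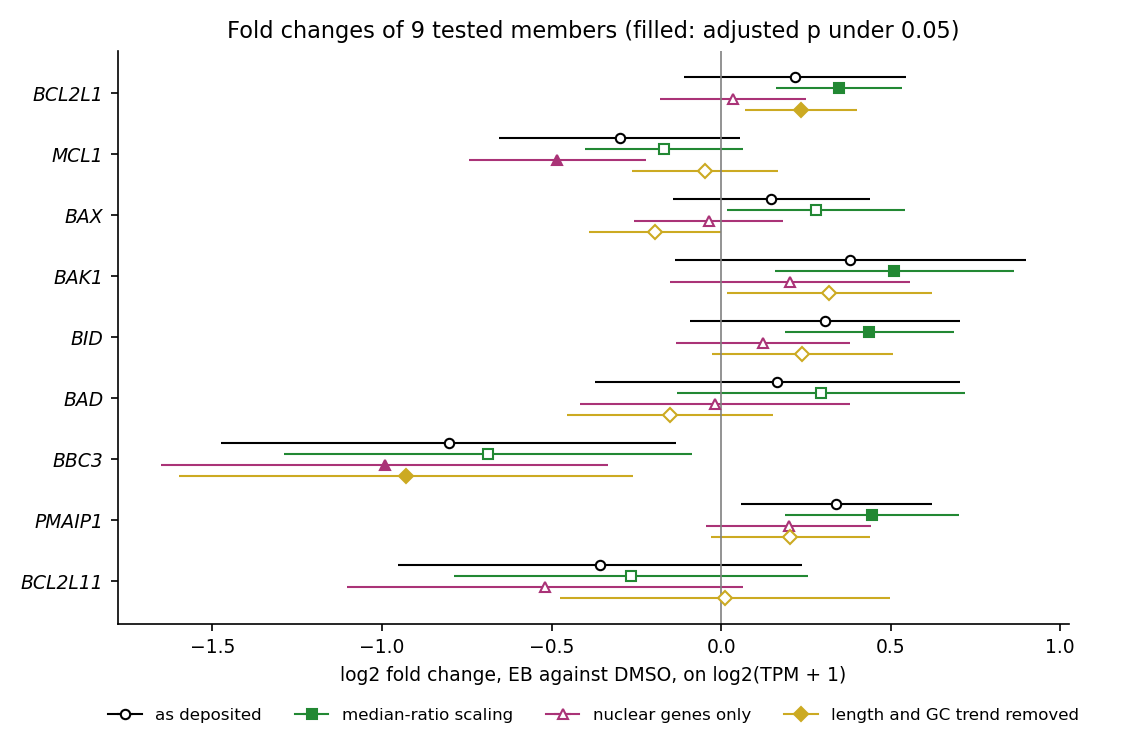
Log2 fold change on log2(TPM + 1), EB against DMSO, of the 9 tested members (x axis) with 95% confidence intervals under 4 ways of scaling; filled symbols have a limma adjusted p under 0.05. With the TPM as deposited no symbol is filled, and the filled symbols differ between the other 3 scalings.

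The order of the TPM levels was the same in both groups apart from MCL1, BCL2L1 and BID. With DMSO it ran BAX, MCL1, BCL2L1, BID, BAD, BAK1, BBC3, PMAIP1, BCL2L11 and BCL2. The neighbours BAX and MCL1, BAK1 and BBC3, BBC3 and PMAIP1, and BCL2L11 and BCL2 had ranges that did not overlap, and the other neighbours overlapped. With EB, BCL2L1 and BID stood before MCL1, but the ranges of BCL2L1 and BID and those of BID and MCL1 overlapped. MCL1 had a higher TPM than BCL2L1 in 4 of 4 DMSO libraries, and BCL2L1 a higher TPM than MCL1 in 4 of 4 EB libraries, although in EB replicate 1 they were nearly equal. The change of this order was not tested.

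Summed TPM, given as a description without a test, were dominated by BAX. The 3 pro-survival members summed to 167 ± 27.7 TPM with DMSO and 161 ± 12.1 TPM with EB (SD, n = 4 each). The effectors BAX and BAK1 summed to 274 ± 38.8 and 309 ± 26.2 TPM, and the 5 BH3-only members to 147 ± 33.5 and 161 ± 19.9 TPM. The pro-death sum was 2.54 ± 0.327 times the pro-survival sum with DMSO, from 2.15 to 2.95 over the libraries, and 2.93 ± 0.282 times with EB, from 2.56 to 3.24. The ranges of this quotient overlapped, and BAX alone made up 40.8% ± 3.14 of the family's TPM with DMSO and 41.7% ± 2.53 with EB.

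Setting single pro-death members against a pro-survival partner within each library reduces the effect of a scaling that all genes of the library share, though the pseudocount keeps it from cancelling for members at low TPM. For 5 such ratios, each the difference of log2(TPM + 1), an exact two-sided permutation test was run and adjusted over the 5. The EB and DMSO values of 2 of the 5 ratios did not overlap, beside 36.8% of all single genes tested, and both of these ratios contain the same MCL1 values. The share over ratios of gene pairs was not computed, and PMAIP1, in 1 of these ratios, already did not overlap by itself. No ratio passed after adjustment, but with 2 ratios at the smallest exact p, 0.0286, the adjusted p could not go below 0.0714 for either.

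The BAK1 to MCL1 log2 ratio, an effector against the inhibitor that restrains it, was −0.96, −1.24, −1.42 and −1.73 in the DMSO libraries and −0.66, −0.82, −0.46 and −0.70 in the EB libraries. Each EB library lay above each DMSO library. The mean went from −1.34 ± 0.32 to −0.66 ± 0.15 (SD, n = 4 each), a difference of 0.68 ± 0.18 (SE) with an exact permutation p of 0.0286 and an adjusted p of 0.0714. The difference was 0.55 without DMSO replicate 4, and it was 0.37 after removal of the length and GC trend.

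The PMAIP1 to MCL1 log2 ratio, NOXA against its main target, was −4.42, −4.36, −4.44 and −4.18 with DMSO and −3.88, −3.91, −3.52 and −3.53 with EB. Here too the groups did not overlap, and DMSO replicate 4 was the DMSO library nearest to the EB libraries. The mean went from −4.35 ± 0.12 to −3.71 ± 0.21 (SD, n = 4 each), a difference of 0.64 ± 0.12 (SE) with an exact permutation p of 0.0286 and an adjusted p of 0.0714. After removal of the length and GC trend this difference was 0.25. With 1 library left out, the smallest exact permutation p is 0.0571.

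The other 3 ratios overlapped between the groups. The BAX to BCL2 log2 ratio was 7.04 ± 0.23 with DMSO and 7.25 ± 0.30 with EB (SD, n = 4 each), a difference of 0.22 with an exact permutation p of 0.371 and an adjusted p of 0.464. Since BCL2 was below the filter, the pseudocount takes a large part in this ratio. After removal of the length and GC trend the difference was −0.60 with an adjusted exact permutation p of 0.0476. That trend was fitted on the tested genes and carried over to BCL2, so this value rests on a correction not fitted for such low levels. The BAD to BCL2L1 ratio differed by −0.05 (exact permutation p = 0.8286). The BCL2L11 to BCL2 ratio differed by −0.29 (exact permutation p = 0.286, adjusted p = 0.464).

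**Figure D3:**
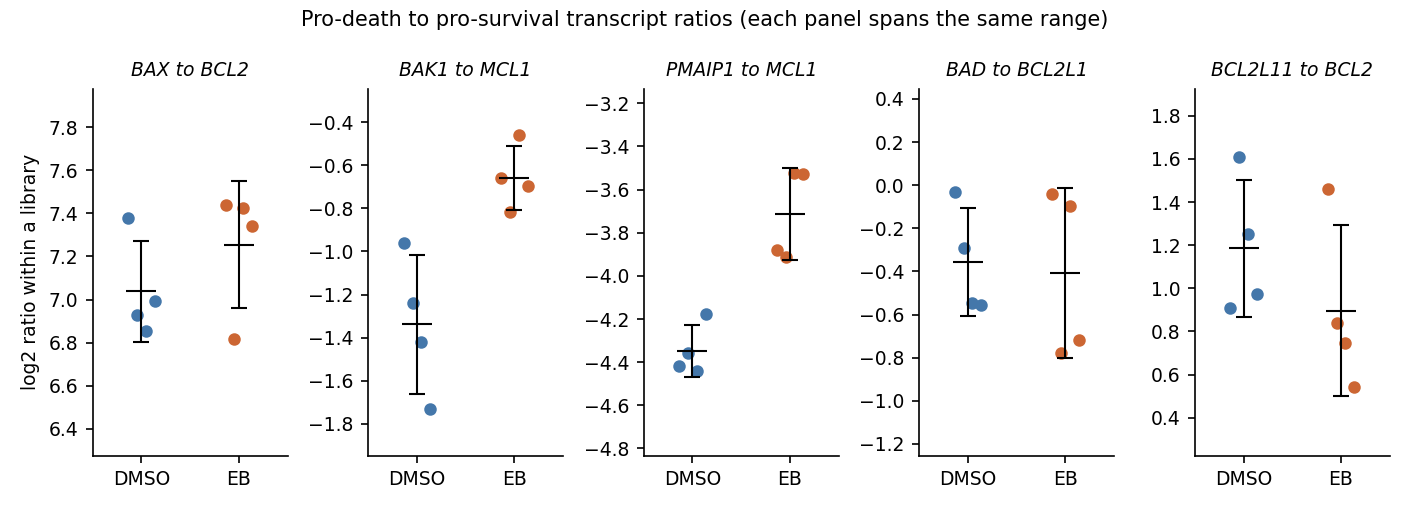
Within-library log2 ratios of 5 pro-death members to a pro-survival partner (y axis, log2(TPM + 1) of the first minus that of the second), with each library as a point and the mean and SD as bars. The EB points of BAK1 to MCL1 and PMAIP1 to MCL1 lie above all DMSO points, and the other ratios overlap.

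Transcript length went with the fold change over the whole table. Across 11685 tested genes, which share the same libraries and are not independent, Spearman's rho between log2 fold change and canonical transcript length was −0.48. Over the 9 tested members it was −0.083, and 9 genes are too few to tell whether the members differ from the whole table. The 6 members with a fitted difference above 0 had canonical transcripts of 795 (BAX), 929 (BAD), 1899 (PMAIP1), 2170 (BAK1), 2177 (BID) and 2574 (BCL2L1) bases. Of those below 0, MCL1 and BCL2L11 had 3950 and 5098 bases, and BBC3 had 1846 bases. With the trend removed, the log2 fold changes of BBC3 (−0.93 against −0.80) and BCL2L1 (0.24 against 0.22) were as large as before, and those of the other 7 tested members were closer to 0 or turned in sign. The part of transcript length in the fold changes was not tested further.

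Of 13 other genes of the BCL2 family, 8 were tested, of which 1 rose and 1 fell, beside 40.3% of all tested genes (15.2% higher, 25.1% lower). BMF, a BH3-only protein that is held at the cytoskeleton in healthy cells, had a TPM of 6.28, 5.51, 2.999 and 2.498 with DMSO and 0.982, 1.09, 0.933 and 0.420 with EB. All EB values lay below all DMSO values, and BMF fell with a log2 fold change of −1.47 ± 0.25 (SE) at a limma adjusted p of 0.00192. It met the filter through its DMSO libraries, since with EB only replicate 2 reached a TPM of 1. The size of the fall is thus uncertain, as the depth behind such low levels is unknown. BCL2L12, an atypical relative, rose from 71.5 ± 20.5 to 149 ± 9.47 TPM (SD, n = 4 each), a log2 fold change of 1.10 ± 0.21 (SE) at a limma adjusted p of 0.00334. Both calls held in every alternative in which the gene was tested, 16 for BMF and 17 for BCL2L12. The median log2 fold change of the 8 tested genes was 0.17. This list had 3 higher with median-ratio scaling and with the length and GC trend removed, 3 lower with nuclear genes only, and 3 lower without DMSO replicate 4. Of all genes in those settings, 26.8% and 24.4% were higher, and 41.4% and 36.96% were lower. The pro-survival relatives BCL2A1 and BCL2L10 were below the filter, and BCL2L2, which can share reads with a readthrough transcript of the neighbouring gene, was at 12.7 ± 10.5 TPM with DMSO and 14.3 ± 6.78 TPM with EB and did not pass (limma adjusted p = 0.677).

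All 10 genes that act after cytochrome c release were tested, and 1 rose and 1 fell, beside 40.3% of all tested genes, with a median log2 fold change of 0.04 against −0.11 over all genes. HTRA2, a mitochondrial protease that relieves caspases of their inhibitor XIAP, had a TPM of 18.2 to 29.4 with DMSO and 50.5 to 65.4 with EB. It rose with a log2 fold change of 1.17 ± 0.16 (SE) at a limma adjusted p of 0.000778. APAF1, the scaffold on which caspase 9 is activated, went from 5.43 ± 2.34 to 2.63 ± 0.549 TPM (SD, n = 4 each), a log2 fold change of −0.77 ± 0.24 (SE) at a limma adjusted p of 0.0282. The APAF1 call was lost without DMSO replicate 1, DMSO replicate 3, EB replicate 2 or EB replicate 3, with log2 fold changes of −0.72, −0.56, −0.75 and −0.67. It was also lost without a filter (limma adjusted p = 0.0551), with quantile normalization (−0.45, adjusted p = 0.112) and after removal of the length and GC trend (−0.28, adjusted p = 0.293), so that APAF1 passed in 9 of 16 alternatives. Over the alternatives this list had 1 to 3 genes higher and 0 to 3 lower. Of all genes, 10.8% to 26.8% were higher and 17.7% to 41.4% lower over the same alternatives.

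Of 14 transcription factors known to act on family genes, 13 were tested, of which 5 rose and 5 fell, beside 15.2% higher and 25.1% lower of all tested genes, with a median log2 fold change of −0.30. DDIT3, the stress-induced factor CHOP that acts on BCL2L11 and BBC3, rose with a log2 fold change of 1.85 ± 0.24 (SE; limma adjusted p = 0.000591), its TPM being 9.61 to 12.01 with DMSO and 27.2 to 67.4 with EB. ATF3, of the same stress response, rose from 1.78 ± 1.08 to 4.90 ± 1.499 TPM (SD, n = 4 each), by 1.15 on the log2 scale (limma adjusted p = 0.0141). TP63, a p53 relative that can activate BBC3 and PMAIP1, fell from 104 ± 21.7 to 10.8 ± 4.404 TPM (SD, n = 4 each), with a log2 fold change of −3.21 (limma adjusted p = 7.18e-05). STAT3, an activator of BCL2L1 and MCL1, fell from 129 ± 36.1 to 38.7 ± 7.11 TPM (SD, n = 4 each), with a log2 fold change of −1.67 (limma adjusted p = 0.000806). These 4 calls held in every alternative in which the gene was tested, 16 for ATF3 and 17 for each of the others. Over the whole list, the lower calls dropped from 5 to 3 without DMSO replicate 2, DMSO replicate 3 or EB replicate 4. Without EB replicate 3 they dropped to 2. Lower calls also dropped over all tested genes in these settings, to between 17.7% and 19.3%, against 25.1% with all libraries. The list had 3 lower with the length and GC trend removed, beside 21.8% of all genes. It had 4 with median-ratio scaling, quantile normalization or without EB replicate 1, beside 25.6%, 23.5% and 20.8%. With nuclear genes only and without DMSO replicate 4 it had 6, beside 41.4% and 36.96%.

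Of 13 protein partners and regulators of the family, all were tested, 1 rose and 4 fell, which at 38.5% is close to the 40.3% of all tested genes, with a median log2 fold change of 0.01. USP9X, a deubiquitinase that stabilises MCL1, fell from 27.0 ± 3.05 to 14.003 ± 2.90 TPM (SD, n = 4 each), a log2 fold change of −0.91 (limma adjusted p = 0.00235) that was −0.35 after removal of the length and GC trend. PPP3CA, a catalytic subunit of the phosphatase calcineurin, which activates BAD, fell with a log2 fold change of −0.78 (limma adjusted p = 0.00290), or −0.43 without the trend. VDAC2, the outer membrane channel that binds BAK, rose from 108 ± 16.8 to 185 ± 53.2 TPM (SD, n = 4 each), a log2 fold change of 0.74 (limma adjusted p = 0.0166). FBXW7, which marks MCL1 for degradation, had a log2 fold change of −0.72 (limma adjusted p = 0.0377), and this call was lost without DMSO replicate 2 (−0.49), DMSO replicate 3 (−0.78), EB replicate 3 (−0.67) or EB replicate 4 (−0.60). It was also lost without a filter (limma adjusted p = 0.0700), with quantile normalization (−0.41, adjusted p = 0.123) and after removal of the trend (−0.32, adjusted p = 0.226), so that FBXW7 passed in 9 of 16 alternatives. The count of lower genes in this list was 2 without DMSO replicate 2, DMSO replicate 3 or EB replicate 3. Of all tested genes, 17.8%, 17.7% and 18.01% were lower in these settings, against 25.1% with all libraries. After removal of the length and GC trend the list had 2 lower and 5 higher, beside 21.8% and 24.4% of all genes.

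**Figure D4:**
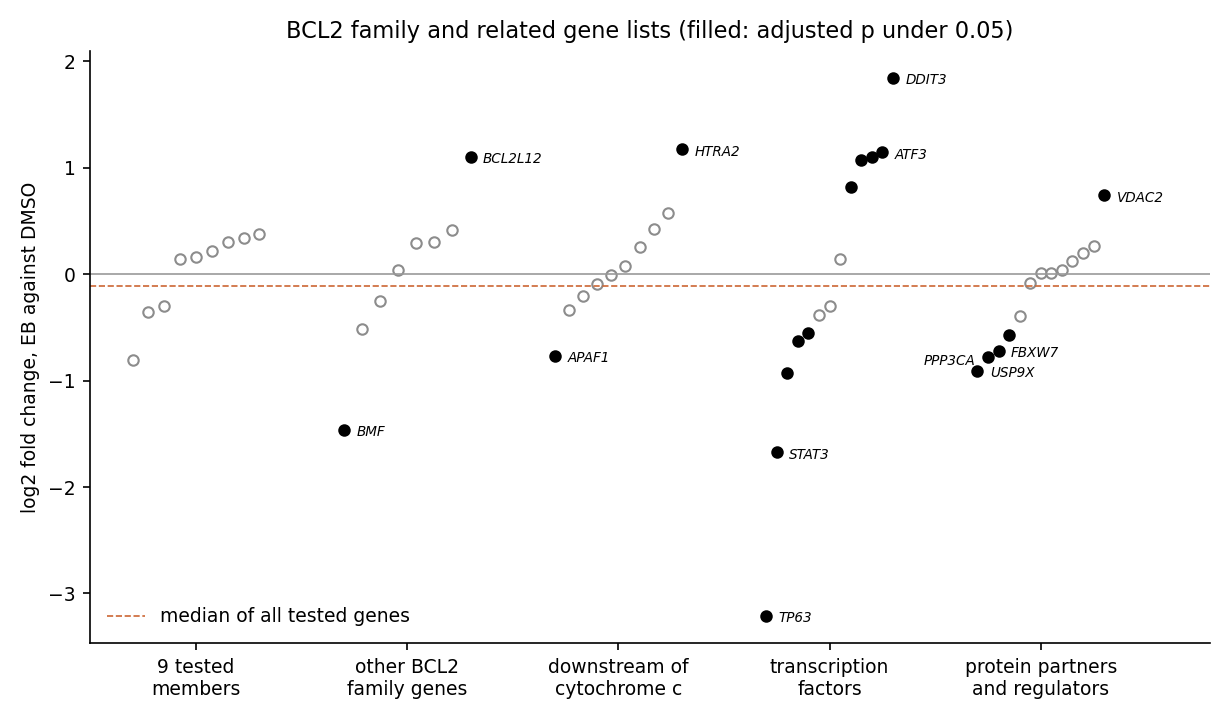
Log2 fold change on log2(TPM + 1), EB against DMSO (y axis), of the tested genes of the family and of 4 related lists; filled points have a limma adjusted p under 0.05, the dashed line is the median of all tested genes, and at most 4 called genes per list are labelled. All 9 tested members are open and lie between −0.80 and 0.38, while called genes of the transcription factor list run from −3.21 to 1.85.

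Markers of the cell type were checked in the same libraries. Of 6 duct epithelium markers, KRT8, KRT18, KRT19 and SOX9 were expressed in every library, and KRT7 and EPCAM were below a TPM of 1 in all. The keratins KRT8, KRT18 and KRT19 rose with EB, with log2 fold changes of 1.20, 1.49 and 1.80, and SOX9 fell with −1.38 (limma adjusted p at most 0.00109 for each). Of 10 markers of other cells, 8 were listed at 0 in all libraries, CDH5 reached at most 0.305 TPM, and COL1A1 lay between 1.66 and 2.17 TPM with DMSO and between 0.806 and 1.05 TPM with EB. The part of the marker changes in the member values was not tested.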

How the data were processed

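The authors deposited 1 table of TPM for 20263 genes in 8 libraries, normalized within each library. By the study's methods, CLC Genomics Workbench did the trimming, mapping, counting and normalization, but Trimmomatic, Bowtie2, HISAT2 and StringTie are listed as additional tools, so it is unclear which of them made the TPM. The methods give GrCM38 for mapping and hg38 as assembly, while all identifiers are human. Column letters C and H were read as DMSO and EB. The methods speak of 4 biological replicates and also of triplicates, and all 8 libraries were used. No read counts were used here, so depth and counting error are unknown. The p-values set the difference between the groups against the spread between libraries within them.

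Of the identifiers, 20148 matched a symbol in GENCODE release 44 and 115 did not. No pair of libraries was identical. The groups were compared in limma 3.58.1 (R 4.3.3; lmFit and eBayes without trend, block or covariate) on log2(TPM + 1), over the genes that reached a TPM of 1 in 4 or more libraries, with Benjamini-Hochberg adjustment over all of them. Single members and ratios were tested by exact permutation (scipy 1.17.1). Of these steps, the limma fit was tested on simulated data, as was the removal of a planted trend on transcript length. Alternatives tried were quantile normalization, median-ratio scaling, a pseudocount of 0.1, a filter at a TPM of 5, no filter, nuclear genes only, removal of a spline trend on canonical transcript length and GC content, an intensity trend, the replicate number as a block, each library left out and the study's thresholds. The members, the gene lists and the tests were chosen with earlier results of these data known. All members are named, and of each other list at most the 4 genes with the largest absolute log2 fold change among those at an adjusted p under 0.05. BCL2L2, BCL2A1, BCL2L10 and the cell type markers are named besides.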

Additional observations from a re-analysis of the deposited data

Results flagged for a closer look

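Of 54 groups of 4 libraries checked for a library far from the other 3, 3 had such a library, and chance alone marks about 1 group in 20. EB replicate 2 had a BCL2 level of 1.10 TPM, against 0.603 to 0.639 in the other EB libraries. The same library had a log2 ratio of BAX to BCL2 of 6.82, below the 7.34 to 7.44 of the other EB libraries, which rests on the same BCL2 value. DMSO replicate 2 had an FBXW7 level of 8.43 TPM, far above the other DMSO libraries, and without it the FBXW7 log2 fold change was −0.49 with a limma adjusted p of 0.0767.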

How the results depend on the processing

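With the TPM as deposited, 0 members were higher and 0 lower past the limma adjusted p. The count of higher members became 1 with a pseudocount of 0.1, without a filter, with quantile normalization and with the length and GC trend removed, and 4 with median-ratio scaling. Of all genes, 15.2% were higher as deposited, 14.6%, 11.8%, 23.8% and 24.4% in those 4 settings, and 26.8% with median-ratio scaling. The count of lower members became 1 with quantile normalization and with the trend removed, and 2 with nuclear genes only, where 23.5%, 21.8% and 41.4% of all genes were lower, against 25.1% as deposited. Leaving out each library in turn gave 0 to 2 lower and 0 higher members, with 2 without DMSO replicate 4, where 36.96% of all genes were lower. A TPM of at least 5 (7 members fitted) and the intensity trend gave 0 in each direction. The replicate block gave 1 higher (PMAIP1) and 1 lower (BBC3) member, beside 19.03% and 30.1% of all genes, with limma adjusted p of 0.0434 and 0.0348. Libraries with the same number did not deviate together in every case (r of 0.18, 0.05, −0.09 and 0.28 for numbers 1 to 4), and replicates 1 and 4 of DMSO, but not 2 and 3, correlated best with their own number, so the numbers were not taken to pair the libraries.

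The direction turned for BAX with quantile normalization (−0.11), nuclear genes only (−0.037) and the trend removed (−0.20), for BAD with nuclear genes only (−0.017), the trend removed (−0.15) and among the fits without 1 library (−0.032 to 0.30), and for BCL2L11 with the trend removed (0.011). For BCL2, which was below the filter, the trend was carried over from the tested genes. With the trend removed, the BAX to BCL2 ratio turned to −0.60, and the differences of BAK1 to MCL1 (0.37) and PMAIP1 to MCL1 (0.25) shrank. All 3 then had the smallest exact permutation p, 0.0286, which lowers their adjusted p to 0.0476 by the number of ratios at that value alone. Why the directions turned was not tested. Over all genes tested, 37.7% of the calls were higher with the TPM as deposited, 51.2% with median-ratio scaling, 50.3% with quantile normalization, 22.7% with nuclear genes only and 52.8% with the trend removed, and the median log2 fold change was −0.28 with nuclear genes only. For the ratios, the exact test cannot pass 0.05 with 1 library left out. Depth is unknown here, which among the members limits BCL2, PMAIP1 and BCL2L11 most, and it also limits BMF.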
